A study of Capsicum annuum and Solanum lycopersicum with 125 samples.

Results

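The genes described here form the EDS1 immune node of tomato: EDS1 (Solyc06g071280), PAD4 (Solyc02g032850), SAG101a (Solyc02g069400) and SAG101b (Solyc02g067660), with the helper NLR genes ADR1 (Solyc04g079420) and NRG1 (Solyc02g090380). They were taken by gene identifier from the tomato gene count table, where all 6 were present among 34688 genes. Of the 125 samples of the series, 61 are tomato libraries: RNA was sequenced from the 3′ end of transcripts in stem tissue of tomato (M82) taken at the graft junction, or from ungrafted stems, on day 7, 14 or 21 after grafting (DAG, days after grafting). Heterografts joined tomato to pepper (California Wonder), a graft-incompatible pair, and self-grafts joined tomato to tomato. The groups were the heterografted scion (tomato on pepper, n = 5, 4 and 4 at 7, 14 and 21 DAG), the heterografted stock (tomato under pepper, n = 4, 3 and 3), the self-grafted scion (n = 4 at each day), the self-grafted stock (n = 3, 5 and 5) and the ungrafted stem (n = 4, 5 and 4). The libraries of a group were separate biological replicates, while the scion and stock pieces of self-grafts may come from the same grafts, which the tests treat as independent. Junction tissue is a mixture in which fewer cells of a type and less RNA per cell cannot be told apart.

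In plants, receptors of the NLR class detect pathogen molecules inside the cell and start a local defence that can end in cell death. In Arabidopsis, receptors with a TIR domain signal through EDS1, a lipase-like protein that forms a dimer with either PAD4 or SAG101. The EDS1 and PAD4 dimer works with the helper NLR ADR1 and feeds salicylic acid signalling, while the EDS1 and SAG101 dimer works with the helper NLR NRG1 and leads to cell death. Solanaceous plants carry a pair of SAG101 genes, here SAG101a and SAG101b.

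Total counts lay between 952084 and 3136541 in 55 of the 61 libraries. The heterografted stocks of 14 DAG held 900, 912 and 1509 counts, with 93.9% of the tested genes at 0 in all 3 libraries, and the 6 genes, all at 0 there, were not tested. The heterografted stocks of 21 DAG held 32731, 226553 and 267066 counts and are treated apart, at the end. The tissue labels could not be checked against marker genes, since the sources used here do not annotate tomato marker identifiers. Levels are given as CPM, a gene's counts relative to the library total, scaled by the trimmed mean of M-values (TMM) over the 55 deeper libraries, and fold changes and adjusted p-values are from edgeR's quasi-likelihood test over all 12176 genes that passed a filter on low counts. A gene passed the test where the Benjamini-Hochberg adjusted p was below 0.05.

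All but NRG1 passed the filter on low counts. ADR1 was the most abundant, with a mean of 235 counts per library over all 61, followed by SAG101b with 74.9, EDS1 with 67.6, PAD4 with 21.1 and SAG101a with 17.5. NRG1 averaged 3.95 counts and had 0 counts in 29 of the 61 libraries, which removed it from the tests. The libraries count 3′ ends, so that gene length enters little, but levels of different genes are still set side by side only as counts.

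EDS1, the shared partner of both dimers, had its highest level in the heterografted scion at 7 DAG. The 5 libraries of that group held 67.7, 60.8, 186, 129 and 92.0 CPM, against 29.3, 35.3, 34.8 and 45.7 CPM in self-grafted scions and 11.7, 11.7, 12.4 and 12.7 CPM in ungrafted stems. The 3 groups did not overlap, and the lowest heterografted scion exceeded the highest self-grafted scion, as for 6.9% of all tested genes (13.7% for heterografted scions above ungrafted stems and 5.52% for self-grafted scions above them). Group means were 107 ± 51.5 CPM in heterografted scions (SD, n = 5), 36.3 ± 6.85 CPM in self-grafted scions (n = 4) and 12.1 ± 0.502 CPM in ungrafted stems (n = 4). EDS1 was 8.60-fold higher in the heterografted scion than in the ungrafted stem (log2 fold change 3.10 ± 0.36 SE, adjusted p = 1.18e-05). It was 2.90-fold higher than in the self-grafted scion (log2 1.54 ± 0.32, adjusted p = 0.00727), and both calls held when any 1 library was left out. The self-grafted scion was above the ungrafted stem by 1.57 on the log2 scale (adjusted p = 0.0221), a call lost without self-grafted scion replicate 5 or ungrafted stem replicate 2, 3 or 5 (adjusted p up to 0.0804).

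In the stock at 7 DAG, EDS1 was above the ungrafted stem in both kinds of graft. Heterografted stocks held 34.8, 43.3, 36.1 and 55.2 CPM, and self-grafted stocks 40.8, 16.9 and 46.5 CPM. The 2 kinds of stock overlapped, whereas every stock library lay above the 4 ungrafted stems (as for 19% of all tested genes in heterografted and 12.8% in self-grafted stocks). The log2 fold change against the ungrafted stem was 1.80 in the heterografted stock (adjusted p = 8.05e-04) and 1.498 in the self-grafted stock, which just missed the threshold (adjusted p = 0.0501). The self-grafted stock passed with total counts (adjusted p = 0.0257) and with DESeq2 (adjusted p = 0.0116). Between heterografted and self-grafted stock the difference was 0.30 on the log2 scale (approximate 95% interval -0.41 to 1.01, adjusted p = 0.658). The heterograft effect on EDS1 was thus numerically larger in the scion than in the stock by 1.24 on the log2 scale, a difference that did not pass its own test (adjusted p = 0.11) except without self-grafted stock replicate 3 (adjusted p = 0.0291).

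EDS1 was also higher in the heterografted scion at 14 DAG. Its level was 66.8, 46.5, 43.9 and 55.9 CPM in heterografted scions, 27.0, 30.4, 22.7 and 21.4 CPM in self-grafted scions, and 15.8, 17.2, 18.2, 33.1 and 13.9 CPM in ungrafted stems. All 4 heterografted scions lay above every library of the other scaled groups of that day, and 17.2% of all tested genes lay above the self-grafted scions and 13.4% above the ungrafted stems in this way. The log2 fold change was 1.05 ± 0.29 against the self-grafted scion (adjusted p = 0.0143, and 0.0507 with the replicate number as a block) and 1.45 ± 0.28 against the ungrafted stem (adjusted p = 9.59e-04). Self-grafted scion and stock no longer passed against the ungrafted stem, with log2 values of 0.40 (adjusted p = 0.393) and 0.03 (adjusted p = 0.983).

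At 21 DAG the level of EDS1 in heterografted scions was 36.8, 34.9, 47.7 and 39.8 CPM, against 24.5, 21.1, 31.8 and 36.1 CPM in self-grafted scions and 35.8, 39.1, 21.9 and 25.5 CPM in ungrafted stems. The groups overlapped. The difference was 0.43 on the log2 scale against the self-grafted scion (approximate 95% interval -0.29 to 1.14, adjusted p = 0.506) and 0.34 against the ungrafted stem (adjusted p = 0.61). Mean levels in the heterografted scion were 107, 53.3 and 39.8 CPM at 7, 14 and 21 DAG, while those of the ungrafted stem were 12.1, 19.6 and 30.6 CPM. The heterograft effect on EDS1 in the scion differed by -0.54 between 14 and 7 DAG (adjusted p = 0.788) and by -1.11 between 21 and 7 DAG (adjusted p = 0.142), so that a change over time did not pass its own test.

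**Figure D1:**
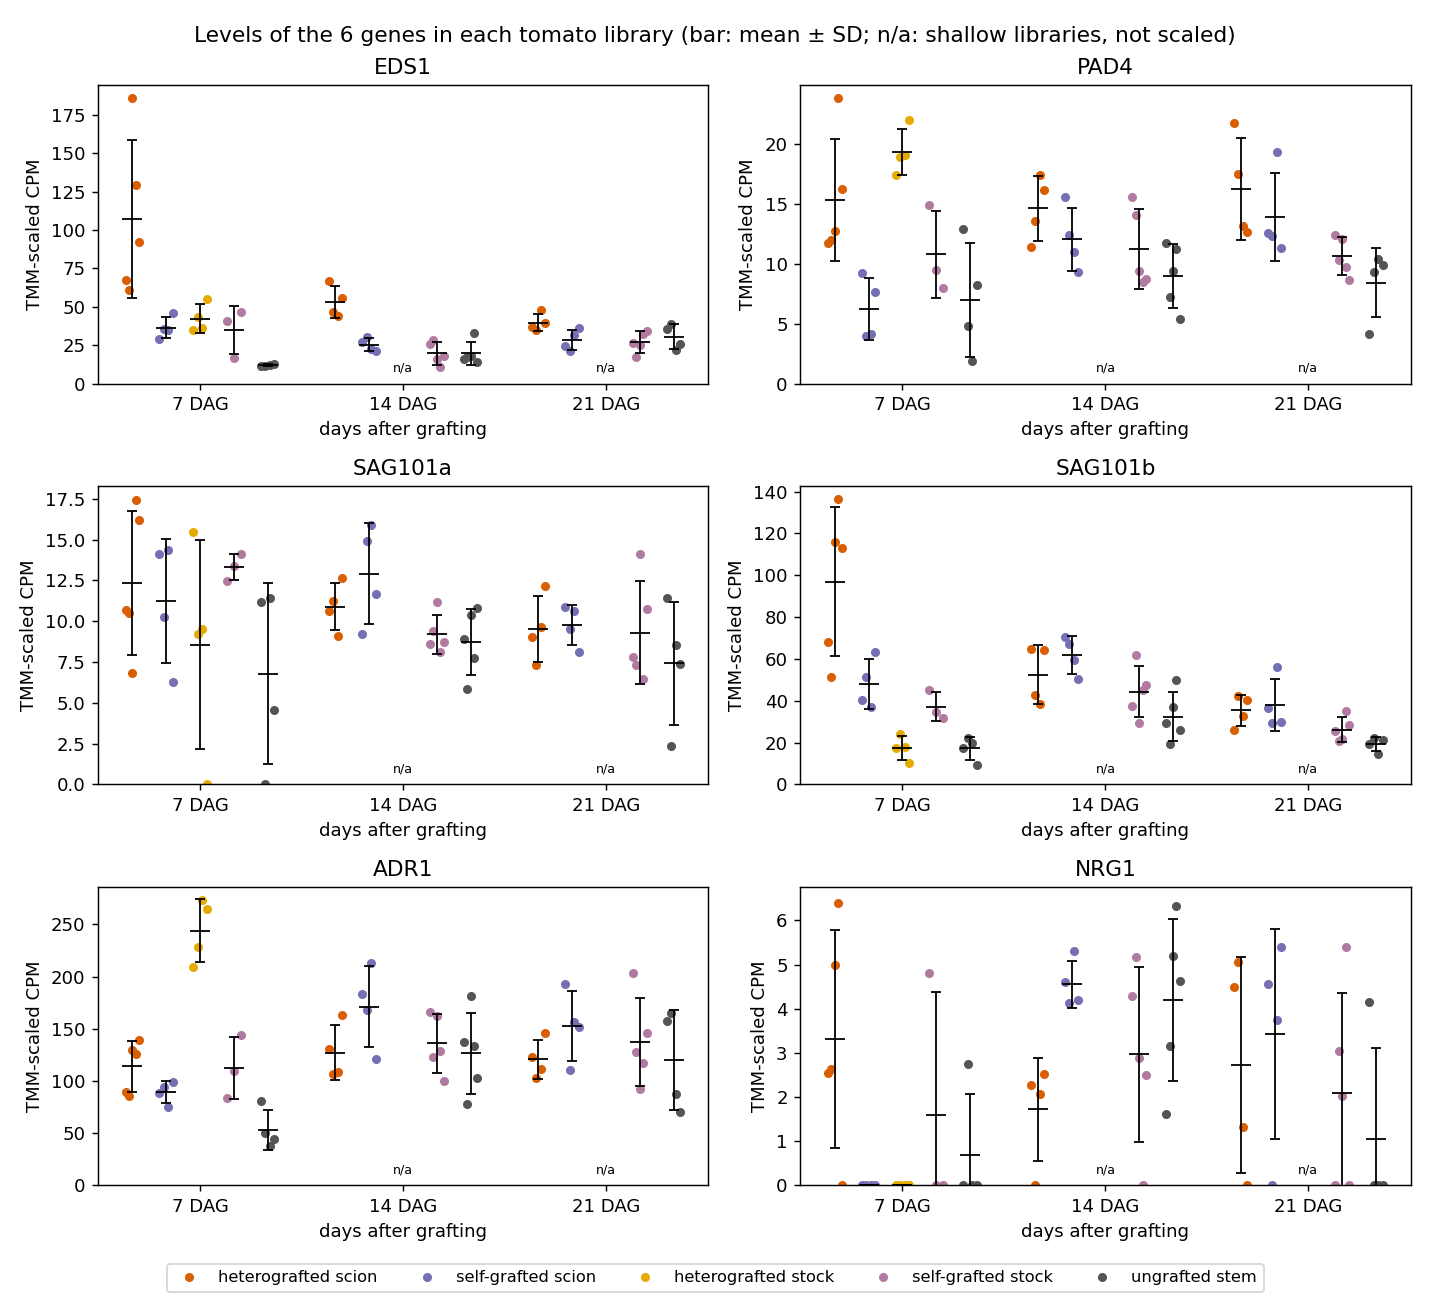
TMM-scaled CPM (vertical axes, each from 0) of the 6 genes in each tomato library at 7, 14 and 21 DAG, coloured by group. Bars show the mean ± SD. Heterografted stocks of 14 and 21 DAG are marked n/a because these shallow libraries were left out of the scaling of levels. EDS1 and SAG101b have their highest levels in the heterografted scions of 7 DAG, and ADR1 in the heterografted stocks of 7 DAG, where its 4 libraries held between 209 and 274 CPM.

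SAG101b, one of the SAG101 partners of EDS1, differed in its heterograft effect between scion and stock at 7 DAG. Heterografted scions held 68.2, 51.4, 116, 136 and 113 CPM, against 40.1, 51.3, 36.9 and 63.2 CPM in self-grafted scions. These groups overlapped. In the stock the order was turned round without overlap, as for 20.8% of all tested genes that lay below, with 17.4, 23.9, 18.0 and 10.3 CPM in heterografted stocks and 45.1, 34.7 and 31.8 CPM in self-grafted stocks. Ungrafted stems held 17.6, 22.1, 20.0 and 9.10 CPM, overlapping the heterografted stocks and lying below every library of the other 3 grafted groups. Of all tested genes, 13.7% lay above the ungrafted stems in this way in heterografted scions, 5.52% in self-grafted scions and 12.8% in self-grafted stocks.

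Against the ungrafted stem, SAG101b was 5.46-fold higher in the heterografted scion (log2 2.45 ± 0.33, adjusted p = 5.46e-05) and 2.75-fold higher in the self-grafted scion (log2 1.46 ± 0.34, adjusted p = 0.0214). The call in the self-grafted scion was lost without self-grafted scion replicate 2 or 5 or ungrafted stem replicate 5 (adjusted p up to 0.0839) and with only the groups compared (adjusted p = 0.0729). The log2 value was 1.10 in the self-grafted stock (adjusted p = 0.12) and 0.01 in the heterografted stock (approximate 95% interval -0.66 to 0.68, adjusted p = 0.995). Between graft types, the heterografted scion was above the self-grafted scion by 0.99 on the log2 scale without passing the test (adjusted p = 0.0656; 0.0283 without heterografted scion replicate 2 and 0.0176 with DESeq2), and the heterografted stock fell below the self-grafted stock (log2 -1.09 ± 0.35, adjusted p = 0.0334). The heterograft effect in the scion exceeded that in the stock by 2.08 ± 0.46 on the log2 scale (adjusted p = 0.00566), and this difference of effects passed in every fit that left out 1 library. SAG101b was the only one of the tested genes of the node to pass that test at 7 DAG, beside 12.3% of all tested genes.

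The fall of SAG101b in the heterografted stock was less stable than the difference of effects. It was lost on leaving out self-grafted stock replicate 2 or 3, or heterografted stock replicate 1, 3 or 5, with adjusted p-values up to 0.143. Scaling by total counts gave a log2 value of -1.03 (adjusted p = 0.0526).

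At 14 DAG SAG101b was 64.9, 42.5, 38.5 and 64.1 CPM in heterografted scions, 70.7, 67.0, 59.4 and 50.3 CPM in self-grafted scions, and 29.5, 19.4, 36.9, 50.0 and 26.2 CPM in ungrafted stems. Every self-grafted scion lay above every ungrafted stem (7.83% of all tested genes did), while the heterografted scions overlapped both groups. The log2 fold change against the ungrafted stem was 0.96 ± 0.26 in the self-grafted scion (adjusted p = 0.0201, and 0.0564 without self-grafted scion replicate 2). It was 0.71 in the heterografted scion (adjusted p = 0.0489), a call that was lost in 14 of the 21 fits that left out 1 library and in the fit without the shallow heterografted stocks (adjusted p = 0.0552). Heterografted and self-grafted scions differed by -0.26 on the log2 scale (adjusted p = 0.549).

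At 21 DAG SAG101b held 26.3, 42.2, 32.8 and 40.2 CPM in heterografted scions and 36.5, 29.3, 56.1 and 29.7 CPM in self-grafted scions, against 19.2, 22.2, 14.6 and 21.4 CPM in ungrafted stems. Both scion groups lay above the ungrafted stems in all libraries, as for 16.2% of all tested genes in heterografted and 4.29% in self-grafted scions, and overlapped each other. Neither passed the test when the shallow stocks shared the fit (log2 0.83, adjusted p = 0.197 in the heterografted scion, and log2 0.99, adjusted p = 0.588 in the self-grafted scion). Without those stocks the heterografted scion passed (log2 0.89, adjusted p = 0.0157) and the self-grafted scion did not (adjusted p = 0.114).

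SAG101a, the other SAG101 gene, was low and varied among replicates. At 7 DAG it held 10.7, 10.5, 6.80, 17.4 and 16.2 CPM in heterografted scions, 14.1, 10.3, 14.3 and 6.27 CPM in self-grafted scions and 11.1, 0, 11.4 and 4.55 CPM in ungrafted stems. All 3 groups overlapped. Heterografted stocks, with 15.5, 9.24, 9.54 and 0 CPM, also overlapped the self-grafted stocks, with 12.5, 13.4 and 14.1 CPM. Group means over all days and groups with a scaled level ranged from 6.78 to 13.3 CPM, and SAG101a passed no test among them. The heterograft effect in the scion was 0.12 at 7 DAG (approximate 95% interval -1.50 to 1.73), -0.27 at 14 DAG (-0.76 to 0.22) and -0.09 at 21 DAG (-0.92 to 0.75) on the log2 scale.

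PAD4, the partner of EDS1 in the branch with ADR1, had its highest level in the heterografted stock of 7 DAG. It held 17.4, 18.9, 19.1 and 22.0 CPM in heterografted stocks, 14.9, 9.46 and 7.96 CPM in self-grafted stocks and 12.9, 4.83, 1.91 and 8.19 CPM in ungrafted stems. The heterografted stocks lay above every library of both other groups, where 14.2% of all tested genes lay above the self-grafted stocks and 19% above the ungrafted stems. PAD4 rose 2.72-fold in the heterografted stock against the ungrafted stem (log2 1.44 ± 0.47, adjusted p = 0.0234), and the difference from the self-grafted stock did not pass (log2 0.84, adjusted p = 0.282). The call against the ungrafted stem was lost without ungrafted stem replicate 2 or 3, with adjusted p-values up to 0.0668.

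In the scion at 7 DAG, PAD4 was 11.7, 12.0, 12.7, 23.8 and 16.2 CPM in heterografts, against 9.22, 3.99, 4.10 and 7.62 CPM in self-grafts. These groups did not overlap either, and 6.9% of all tested genes lay above in this way. The log2 difference was 1.24 ± 0.45 (approximate 95% interval 0.36 to 2.13), which did not pass with edgeR (adjusted p = 0.131) but did with DESeq2 (adjusted p = 0.0236). Against the ungrafted stem it was 1.07 (adjusted p = 0.121), which passed without ungrafted stem replicate 1, the highest of its group (adjusted p = 0.0311). At 14 and 21 DAG the difference between heterografted and self-grafted scions was 0.26 (adjusted p = 0.583) and 0.16 (adjusted p = 0.818).

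Against ungrafted stems, PAD4 in the heterografted scion was higher by 0.69 at 14 DAG (adjusted p = 0.0728) and by 0.89 at 21 DAG (adjusted p = 0.0964) on the log2 scale. The 21 DAG levels were 21.8, 17.4, 13.1 and 12.6 CPM in heterografted scions and 4.15, 9.34, 10.4 and 9.86 CPM in ungrafted stems, with no overlap (16.2% of all tested genes lay above in this way). Self-grafted scions of 21 DAG, at 11.3 to 19.3 CPM, also lay above every ungrafted stem, as for 4.29% of all tested genes (log2 0.73, edgeR adjusted p = 0.679). The call in the heterografted scion depended on the shallow stocks of that day, and without them PAD4 passed there (log2 0.94, adjusted p = 0.0429).

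ADR1, the helper NLR of the PAD4 branch, had its highest level in the heterografted stock of 7 DAG. Its libraries held 209, 228, 274 and 265 CPM, against 84.0, 110 and 144 CPM in self-grafted stocks and 81.0, 49.6, 37.2 and 44.6 CPM in ungrafted stems. The 3 groups did not overlap, with heterografted stocks above self-grafted stocks for 14.2%, and above ungrafted stems for 19%, of all tested genes. Self-grafted stocks lay above ungrafted stems in this way for 12.8%. ADR1 was 4.55-fold higher in the heterografted stock than in the ungrafted stem (log2 2.18 ± 0.24, adjusted p = 1.48e-06) and 2.18-fold higher than in the self-grafted stock (log2 1.12 ± 0.25, adjusted p = 0.0032). Both calls held in every fit that left out 1 library. The self-grafted stock was above the ungrafted stem by 1.06 (adjusted p = 0.0318), a call lost without ungrafted stem replicate 2, 3 or 5 or self-grafted stock replicate 3 or 5, with adjusted p-values up to 0.159.

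In the scion at 7 DAG, ADR1 was 89.6, 85.9, 130, 126 and 139 CPM in heterografts and 88.4, 94.6, 74.8 and 99.0 CPM in self-grafts. These groups overlapped, and their difference was 0.33 on the log2 scale (approximate 95% interval -0.09 to 0.75, adjusted p = 0.519). The heterografted scion passed against the ungrafted stem (log2 1.06 ± 0.22, adjusted p = 0.00275), and the self-grafted scion did not (log2 0.73, adjusted p = 0.108; 0.0134 without ungrafted stem replicate 1). The heterograft effect was smaller in the scion than in the stock by 0.80 on the log2 scale, which did not pass the test of the difference (scion minus stock -0.80, adjusted p = 0.132).

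ADR1 passed no comparison among the scaled groups at 14 or 21 DAG. Its ungrafted stems held 137, 78.1, 181, 133 and 102 CPM at 14 DAG and 157, 165, 87.7 and 70.6 CPM at 21 DAG. Group means of all grafted tissues lay between 121 and 171 CPM on these days, against 126 and 120 CPM in the ungrafted stems. The heterografted scion was below the self-grafted scion by 0.45 at 14 DAG (log2 -0.45, adjusted p = 0.19) and by 0.40 at 21 DAG (log2 -0.40, adjusted p = 0.633).

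NRG1, the helper NLR of the SAG101 branch, was detected at 3 to 14 counts where it was detected at all. At 7 DAG it was seen in 4 of 5 heterografted scions, at 2.54, 2.63, 4.99 and 6.39 CPM, and in none of the 4 self-grafted scions and none of the 4 heterografted stocks. A count of 0 allowed levels up to a floor of 3 counts, for counting error only. That floor was 1.34 to 3.07 CPM in these self-grafted scions and 1.26 to 1.93 CPM in these heterografted stocks. Only the floor of self-grafted scion replicate 3, 3.07 CPM, exceeded the lowest of the detected levels, 2.54 CPM. One of 3 self-grafted stocks held 4.80 CPM and 1 of 4 ungrafted stems 2.76 CPM. At 14 DAG the order in the scion was the opposite, with 2.28, 0, 2.07 and 2.53 CPM in heterografted scions and 4.60, 4.12, 5.30 and 4.19 CPM in self-grafted scions, which did not overlap (14.5% of all tested genes lay below in this way). When the filter on low counts was dropped, NRG1 passed no test, and the smallest adjusted p was 0.0546, for the difference between scion and stock of the heterograft effect at 7 DAG. Differences of this gene were not detectable at this depth.

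Counted by comparison at 7 DAG, 3 of the 5 tested genes passed in the heterografted scion against the ungrafted stem (EDS1, SAG101b and ADR1, all higher), where 17.5% of all tested genes passed. In the heterografted stock 3 passed (EDS1, PAD4 and ADR1, all higher), where 36.2% of all genes passed. EDS1 and SAG101b were higher in the self-grafted scion, where 3.3% passed, and ADR1 in the self-grafted stock, where 2.06% passed. Against self-grafts, EDS1 passed in the scion (5.93% of all genes), and ADR1 rose and SAG101b fell in the stock (20.1% of all genes). The median log2 fold change of the 5 genes against the ungrafted stem was 1.07 for the heterografted scion, beside 0.12 over all tested genes, and 1.44 for the heterografted stock, beside 0.05. For self-grafts this median was 0.73 in the scion, beside 0.03, and 1.06 in the stock, beside 0.14. All comparisons with the ungrafted stem share the same 4 ungrafted libraries.

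**Figure D2:**
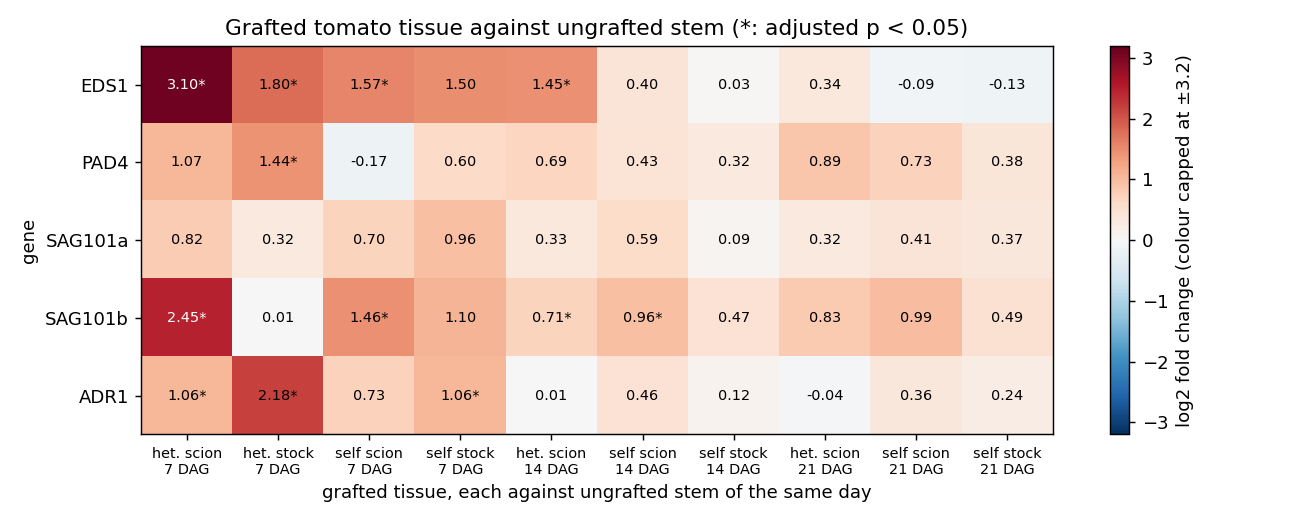
Log2 fold change (colour, and printed in each cell) of the 5 tested genes (rows) in each grafted tissue against the ungrafted stem of the same day (columns), with an asterisk where the edgeR adjusted p was below 0.05; het. stands for heterografted, and heterografted stocks of 14 and 21 DAG are left out. EDS1 reaches 3.10 in the heterografted scion of 7 DAG and 1.45 at 14 DAG, while SAG101b is at 0.01 in the heterografted stock of 7 DAG.

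At 14 DAG, EDS1 and SAG101b were higher in the heterografted scion than in the ungrafted stem (26.8% of all genes passed), SAG101b in the self-grafted scion (13.3%), and EDS1 in the heterografted against the self-grafted scion (23.5%). None of the 5 passed in the self-grafted stock at 14 DAG (5.72%), also with DESeq2 or at an unadjusted p below 0.05. At 21 DAG edgeR called 0 of the 5 in the heterografted scion against the ungrafted stem (14% of all genes), where PAD4 had an unadjusted p of 0.0183 and where 2 of the 5, PAD4 and SAG101b, passed without the shallow stocks. It called 0 against the self-grafted scion (14.4%), with none below 0.05 unadjusted. It also called 0 in the self-grafted scion (0.164%), where SAG101b and PAD4 had unadjusted p-values of 0.0268 and 0.0484, and 0 in the self-grafted stock (0.0903%), with none below 0.05 unadjusted. DESeq2 called none in these 4 comparisons of 21 DAG either.

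For the change of the scion heterograft effect between days, no gene of the node passed with edgeR or DESeq2. These fits kept the shallow heterografted stocks of 21 DAG, and no fit over time was run without them. Between 14 and 7 DAG, 0.953% of all genes passed, and SAG101b (log2 -1.29) and PAD4 (log2 -1.04) had unadjusted p-values of 0.00665 and 0.0414. Between 21 and 7 DAG, 8.48% passed, and EDS1, PAD4 and SAG101b had unadjusted p-values of 0.0221, 0.0359 and 0.0177. Between 21 and 14 DAG, 2.55% passed, and no gene of the node was below 0.05 unadjusted.

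**Figure D3:**
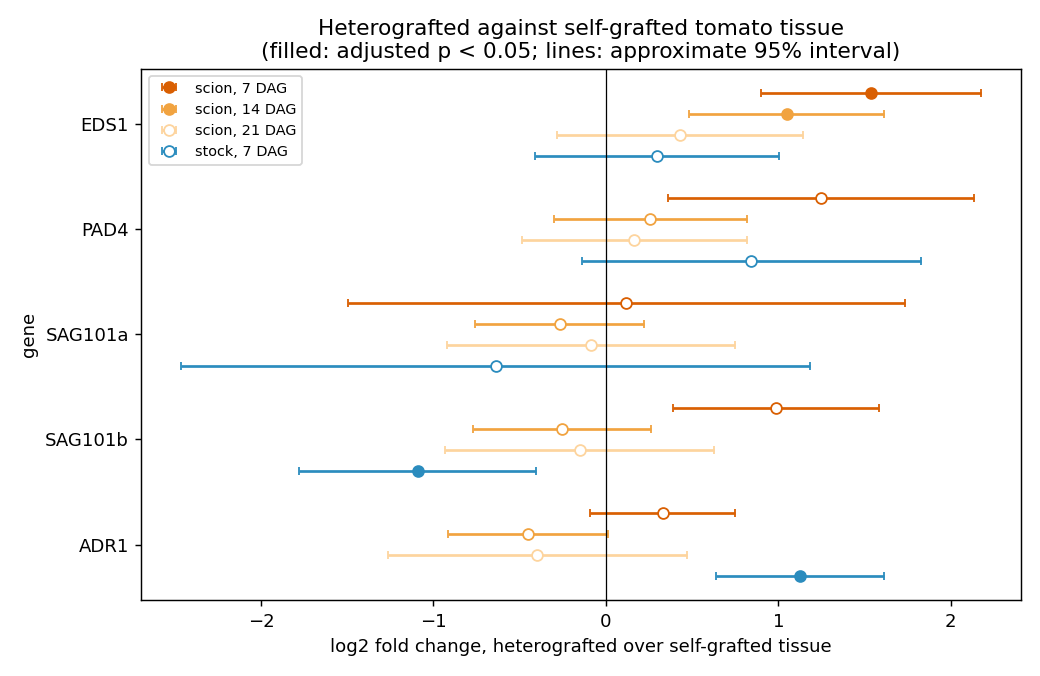
Log2 fold change of heterografted over self-grafted tissue (horizontal axis) with its approximate 95% interval, for each of the 5 tested genes (rows) in the scion at 7, 14 and 21 DAG and in the stock at 7 DAG; filled points had an adjusted p below 0.05. EDS1 is filled in the scion at 7 and 14 DAG, whereas in the stock at 7 DAG SAG101b lies at -1.09 and ADR1 at 1.12.

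Across the 55 deeper libraries, the tested genes of the node differed widely in how closely they followed each other. Pearson's r of log2 CPM was 0.56 between PAD4 and ADR1, 0.55 between EDS1 and SAG101b, 0.45 between EDS1 and PAD4 and 0.41 between SAG101a and SAG101b. It was 0.14 between SAG101b and ADR1, 0.08 between SAG101a and ADR1 and 0.05 between PAD4 and SAG101a. These values describe libraries that share groups and days, and low counts of PAD4 and SAG101a limit their r. The median r of EDS1 with all tested genes was 0.05 and that of ADR1 was 0.08. The genes most like EDS1 were Solyc04g078290 (r = 0.84) and Solyc10g007280 (r = 0.83), which the files do not pair with names. Among the 3 genes most like ADR1 was Solyc03g117980, annotated as the NADPH oxidase gene RBOHB, at r = 0.79.

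Downstream genes of salicylic acid signalling were measured in the same libraries. WRKY70, in Arabidopsis a transcription factor of salicylate responses, held 28.0, 101, 206, 180 and 46.2 CPM in heterografted scions of 7 DAG, 4.34, 5.70, 0 and 47.9 CPM in self-grafted scions and 10.6, 3.45, 0 and 0 CPM in ungrafted stems. One self-grafted scion overlapped the heterografted scions, and the rest lay below them. WRKY70 passed against the ungrafted stem (log2 4.78 ± 1.05, adjusted p = 0.0037) and not against the self-grafted scion (log2 2.85, adjusted p = 0.0713). At 14 DAG it held 101, 47.1, 57.2 and 62.2 CPM in heterografted scions and 5.17, 9.27, 8.70 and 4.19 CPM in self-grafted scions, without overlap, as for 17.2% of all tested genes (log2 3.25 ± 0.68, adjusted p = 0.00245). At 21 DAG it was 72.0, 50.7, 63.8 and 90.7 CPM in heterografted scions, all above the 18.3, 19.1, 36.1 and 39.4 CPM of self-grafted scions, as for 19.9% of all tested genes (log2 1.24, adjusted p = 0.058).

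PR1, a marker of salicylate-induced defence, and NPR1, a salicylate receptor, were the other downstream genes with an annotation. PR1 was higher in the heterografted than in the self-grafted stock at 7 DAG (log2 2.50, adjusted p = 0.0174) and did not pass between heterografted and self-grafted scions of that day (log2 -0.15, approximate 95% interval -1.28 to 0.97, adjusted p = 0.955). In scions of 21 DAG PR1 held 110, 85.6, 106 and 153 CPM in heterografts and 1205, 748, 894 and 576 CPM in self-grafts. It was lower in heterografts (log2 -2.97, adjusted p = 0.0034) without overlap, as for 16.2% of all tested genes. Means at 7, 14 and 21 DAG were 174, 199 and 114 CPM in heterografted and 189, 66.6 and 856 CPM in self-grafted scions. Those of ungrafted stems were 5.51, 38.6 and 632 CPM. NPR1 passed neither comparison at 7 DAG (scion log2 0.67, adjusted p = 0.8, and stock log2 0.64, adjusted p = 0.722). Of these 3 genes, WRKY70 passed 1 and PR1 2 of the 4 comparisons of heterografted with self-grafted tissue outside the shallow stocks. NPR1 passed none. Of all tested genes, 5.93%, 23.5% and 14.4% passed in the scion at 7, 14 and 21 DAG and 20.1% in the stock at 7 DAG. In that stock WRKY70 averaged 24.9 CPM in heterografts and 9.66 CPM in self-grafts, without overlap, as for 14.2% of all tested genes.

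In the heterografted stocks of 21 DAG the counts were too few for most statements. EDS1 had 12, 0 and 2 counts in the 3 libraries, SAG101b 0, 0 and 8, ADR1 49, 0 and 32, and PAD4, SAG101a and NRG1 0 in all 3. The library with 32731 counts held none of the 6 genes. Of all tested genes, 46.5% were at 0 in all 3 libraries. Summed over the 3 libraries (526350 counts in all) EDS1 had 14 counts, against 13.8 that the level of the self-grafted stock would give at this depth, and 12 of the 14 came from replicate 1. ADR1 had 81 against 69.0, SAG101b 8 against 13.4, PAD4 0 against 5.29 and SAG101a 0 against 4.63. Against a floor of 3 counts over the group, PAD4 was at least 1.76-fold lower and SAG101a at least 1.54-fold lower than in the self-grafted stock, for counting error only. For NRG1 the depth allowed no statement.

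**Figure D4:**
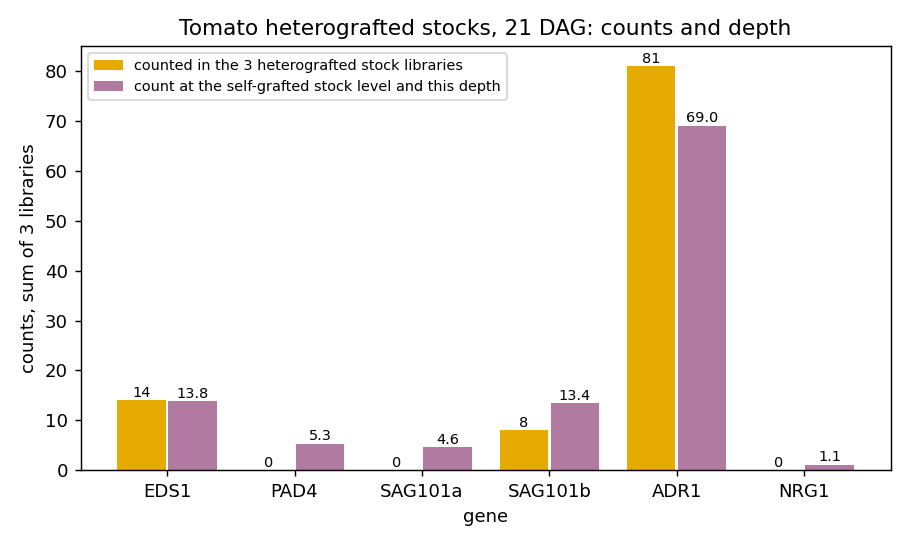
Counts summed over the 3 heterografted stock libraries of 21 DAG (yellow bars) beside the count that the level of the self-grafted stock would give at the same summed depth (purple bars), for each of the 6 genes; the vertical axis starts at 0. EDS1 stands at 14 beside 13.8, with 12 of its counts from 1 library, and ADR1 at 81 beside 69.0, with 49 from that library, while PAD4 and SAG101a were not counted.

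The edgeR fit called PAD4, SAG101a and SAG101b lower in the heterografted than in the self-grafted stock at 21 DAG (3 of 5, where 65% of all tested genes passed), and PAD4 and SAG101a lower than in the ungrafted stem (2 of 5, where 64.8% passed). For PAD4 and SAG101a, at 0 in all 3 libraries, the fitted fold change is no measure of size. The direction of EDS1 and ADR1 followed the scaling. SAG101b was lower with TMM and with total counts, and of these scalings passed with TMM only. EDS1 was at -1.04 on the log2 scale with TMM and at 0.08 with total counts, ADR1 at -0.96 and 0.13, and SAG101b at -1.75 (adjusted p = 0.0176) and -0.74 (adjusted p = 0.282). The TMM factors of these 3 libraries were 1.74, 4.71 and 1.40, against 0.81 to 0.98 in the other libraries of that day, and the median gene was at -3.67 with TMM and -2.71 with total counts. The SAG101b call was also lost without heterografted stock replicate 1 or 2 (adjusted p up to 0.104) and with only the groups compared (log2 -1.46, adjusted p = 0.128). EDS1 (adjusted p = 5.16e-04) and ADR1 (adjusted p = 0.0343) instead passed, as lower, without heterografted stock replicate 1. The difference of heterograft effects between scion and stock at 21 DAG passed for PAD4 and SAG101a, where 56.4% of all genes passed, and rests on the same 3 libraries. EDS1 missed that test (adjusted p = 0.0508) and passed it with size factors, DESeq2 and both other filters (0.0420, 0.0179, 0.0401 and 0.0363). Other alternatives also called genes of the node lower in these stocks. Against the self-grafted stock, EDS1 passed with no filter and with edgeR's filterByExpr (adjusted p = 0.0418 and 0.0457) and ADR1 with DESeq2 (adjusted p = 0.0309). Against the ungrafted stem, EDS1 passed with size factors, DESeq2 and both other filters (adjusted p up to 0.0305), SAG101b with size factors and DESeq2 (0.0404 and 0.0233) and ADR1 with DESeq2 (0.0366).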

How the data were processed

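Tomato stem tissue of 0.5 cm around the junction was sequenced from transcript 3′ ends (QuantSeq). The authors trimmed reads, aligned them with STAR 2.7.10b to the tomato ITAG4 reference and deposited raw counts per gene. They left outlying libraries out of their later analysis, but shallow libraries are in the deposited table. Whether counting used strand is not given in the sources used here, and the files of pepper were not used. Genes with a mean of at least 10 counts and 0 counts in fewer than 75% of the 61 libraries were kept. Counts were fitted per day over all 5 groups with edgeR 4.0.16 (TMM, quasi-likelihood test, Benjamini-Hochberg adjustment), and effects over time in 1 fit of all days. The fit over time left out the heterografted stocks of 14 DAG and kept those of 21 DAG. Approximate 95% intervals are ± 1.96 SE. The alternatives were DESeq2 1.42.0, its size factors, total counts, other filters, a replicate block, only the groups compared, and leaving out libraries. The named genes are the 6 of the node, 3 annotated salicylate genes and the genes of highest correlation. The members and lists were chosen with earlier results of these data known. On simulated counts for heterografted against self-grafted scions, 77.5%, 92.5% and 91.5% of 200 genes changed by 2 on the log2 scale were recovered at 7, 14 and 21 DAG (12176 genes). The changed genes were drawn only from those above the median level, and the heterografted stocks of 14 and 21 DAG were left out. These rates therefore do not cover genes of lower level, changes below 2 on the log2 scale or the fits that held the shallow stocks. Every difference of the tested node genes between heterografted and self-grafted scions was below 2. Tomato sequences, coordinates and promoter motifs were not analysed here.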

Additional observations from a re-analysis of the deposited data

Results flagged for a closer look

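Of 70 sets, each of 1 gene in 1 group of 4 or 5 libraries, 5 held a library far from the others. Chance gives about 1 in 20 for normally distributed values. The sets share libraries, and that rate does not hold for NRG1 where all other values are 0. EDS1 was 33.1 CPM in ungrafted stem replicate 4 at 14 DAG, with the next at 18.2 CPM. PAD4 was 19.3 CPM in self-grafted scion replicate 4 at 21 DAG, with the next at 12.5 CPM, and 4.15 CPM in ungrafted stem replicate 1 at 21 DAG, with the next at 9.34 CPM. NRG1 was 2.76 CPM in ungrafted stem replicate 2 at 7 DAG and 4.15 CPM in ungrafted stem replicate 1 at 21 DAG, with the rest of both groups at 0.

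The heterograft effect on SAG101b was larger in the scion than in the stock at 7 DAG by 2.08 on the log2 scale (edgeR, adjusted p = 0.00566). At 21 DAG the fitted difference of effects was 7.21 for PAD4 (adjusted p = 7.97e-05) and 6.77 for SAG101a (adjusted p = 7.22e-04). Both are at 0 in the 3 heterografted stocks, so these sizes are no measure of a fold.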

How the results depend on the processing

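Over all days (5 genes a day), heterografted scions and stocks each had 5 passes against ungrafted stems. Self-grafted scions had 3 and stocks 1. Heterografted against self-grafted scions had 2 and stocks 5. Per test, 0.0903% to 65% of all genes passed, most in heterografted stocks of 21 DAG, so counts rank no groups. Heterografted stocks summed 3 higher calls at 7 and 2 lower at 21 DAG against ungrafted stems. Against self-grafted stocks, 1 was higher and 1 lower at 7 and 3 lower at 21 DAG. Leaving out 1 library gave 4 to 6, 4 to 6, 1 to 4, 0 to 2, 2 to 3 and 4 to 6 in that order. Asking for a log2 fold change above 1.5 as well gave 2 in the heterografted scion, 1 in the self-grafted scion and 0 in the self-grafted stock against the ungrafted stem, and 1 and 3 against self-grafted scion and stock. DESeq2's test gave 8 in the heterografted stock and 2 in the self-grafted stock against the ungrafted stem and 4 in the heterografted against the self-grafted scion. Its size factors, and total counts (chosen after the data were seen), gave 2 in the self-grafted stock. Total counts, and a fit of only the groups compared, gave 3 in the heterografted against the self-grafted stock, and that fit 0 in the self-grafted stock.

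The sources do not say that replicate numbers mark a shared graft, and same-numbered libraries deviated with a median r of 0.02, 0.00105 and -0.0045 at 7, 14 and 21 DAG. Self-grafted scion and stock of the same number reached an r of 0.0735, 0.203 and 0.208, and not every pair was over 0.1. With the replicate block the self-grafted stock had 0 passes, SAG101b in the heterografted against the self-grafted stock at 7 DAG an adjusted p of 0.0668, and EDS1 in the heterografted against the self-grafted scion at 14 DAG 0.0507. SAG101b in the heterografted scion at 14 DAG had 0.0854. The difference of effects of SAG101b at 7 DAG kept its call with the block.

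PAD4 in the heterografted scion against the ungrafted stem at 14 DAG passed with size factors, total counts and DESeq2's test (adjusted p = 0.0071, 0.0429 and 0.0266), SAG101a there with size factors only (0.0293), where size factors moved the median of all genes by 0.47. ADR1 against the self-grafted scion at 14 DAG passed, as lower, with the block only (0.0491). Fitting only the groups compared, PAD4 in the heterografted stock at 7 DAG had 0.0834.

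Several values changed sign, and none of them passed the test under edgeR with TMM or after the change. SAG101b in the heterografted stock at 7 DAG was -0.011 without a filter. In the heterografted scion against the ungrafted stem, ADR1 at 14 DAG was -0.052 with the replicate block, -0.024 with only the groups compared and -0.012 without the shallow stocks, and at 21 DAG 0.063 with the block, 0.018 without those stocks and 0.18 with total counts. Size factors and DESeq2's test, which moved the median of all genes by 0.41 in the heterografted against the self-grafted scion at 14 DAG, put SAG101a at 0.15 and 0.14 and SAG101b at 0.11 and 0.11 there. They put ADR1 in the self-grafted stock at 21 DAG at -0.0022 and -0.0021. Total counts put SAG101a in the heterografted against the self-grafted scion at 21 DAG at 0.049. For the heterografted stock of 21 DAG they put EDS1 at 0.077 and ADR1 at 0.13 against the self-grafted stock, ADR1 at 0.43 against the ungrafted stem, and ADR1 at -0.40 for the difference of effects, where TMM put the first 3 at -1.04, -0.96 and -0.72. The cause of these sign changes was not tested, also where a median shift is given.

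Depth limits PAD4, SAG101a and NRG1 throughout and all 6 genes in the heterografted stocks of 14 and 21 DAG. The part that the reported RNA degradation has in the values of heterografted stocks was not tested.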
